A study of Mus musculus with 20 samples.

Results

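The genes described here are 40 cyclins, cyclin-dependent kinases (CDKs) and the proteins that switch these kinases on and off. They were chosen by name, from their known roles, with earlier results of these data known. A probe was found for 39 of the 40 genes, among 16966 named genes on the array, and Ccnb1 had none. The 39 genes were read by 41 probes, since Cdk6 and Cdkn1b had 2 probes each. The values came from whole testis of 20 male mice in 4 groups of 5. Wt control mice were C57BL/6 mice that received the solvent sunflower oil, and Wt B[a]P mice were C57BL/6 mice given benzo(a)pyrene (B[a]P) once by oral gavage, at 13 mg/kg bw. Xpc-/- control and Xpc-/- B[a]P mice received the same 2 treatments and lack Xpc, the damage sensor of global genome nucleotide excision repair. All testes were taken 4 days after dosing. Each RNA was compared with 1 common pool from 3 unexposed Wt mice, which were not among the 20 mice. Ages were not given in the sources used here. B[a]P, a combustion product, is turned by metabolism into forms that bind DNA.

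A CDK is inactive until a cyclin binds it. Cyclin D with Cdk4 or Cdk6, and cyclin E or A with Cdk2, take a cell from G1 into S phase, and cyclin B with Cdk1 takes it into division. Wee1 and Pkmyt1 hold Cdk1 off by phosphorylation, and the Cdc25 phosphatases remove that mark. In the testis these proteins serve the mitoses of spermatogonia and the meiotic divisions of spermatocytes, and cyclin A1 and Cks2 are both needed for male meiosis in the mouse. A further set of cyclins and kinases acts on RNA polymerase II and not on the cell cycle. The comparisons ask whether B[a]P changed these transcripts, whether the lack of Xpc changed them, and whether the response differed between the genotypes.

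Promoters of cell cycle genes often carry CCAAT boxes, bound by the factor NF-Y, and the element TTTGAA, known as the cell cycle genes homology region. The promoters of Ccnb2, which was lower after B[a]P, and Cks2, which was higher, are printed because both genes act with Cdk1 and moved in opposite directions. They are RefSeq windows on GRCm38.p6 that run from 250 bases before to 50 bases after the gene start, 5′ to 3′ on the gene's strand, at chr9:70421505-70421804 on the minus strand for Ccnb2 and at chr13:51644982-51645281 on the plus strand for Cks2. Capitals mark CCAAT and TTTGAA on either strand, so that ATTGG is CCAAT on the other strand.
Ccnb2: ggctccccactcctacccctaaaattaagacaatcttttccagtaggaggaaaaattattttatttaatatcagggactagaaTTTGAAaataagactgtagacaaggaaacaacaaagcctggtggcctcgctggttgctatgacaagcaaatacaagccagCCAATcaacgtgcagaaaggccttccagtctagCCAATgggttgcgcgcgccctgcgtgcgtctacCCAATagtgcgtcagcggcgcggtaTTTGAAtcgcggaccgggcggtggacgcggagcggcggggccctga
Cks2: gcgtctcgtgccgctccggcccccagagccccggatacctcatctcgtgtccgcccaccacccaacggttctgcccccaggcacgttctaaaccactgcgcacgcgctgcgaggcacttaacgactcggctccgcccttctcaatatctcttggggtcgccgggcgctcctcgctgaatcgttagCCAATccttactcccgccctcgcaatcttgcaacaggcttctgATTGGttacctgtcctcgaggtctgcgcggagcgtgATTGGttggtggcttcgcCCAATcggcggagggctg

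The Ccnb2 window held 3 CCAAT and 2 TTTGAA, and the Cks2 window held 4 CCAAT and 0 TTTGAA. No 2 of these matches overlapped. Of the 39 members, 30 had a promoter entry, with 33 windows in all. CCAAT on either strand was found in 21 of the 33 windows (63.6%), against 37.4% of all 32851 windows of the same length. TTTGAA was found in 8 of the 33 (24.2%), against 17.9% of all windows. Both were found together in 6 of the 33 (18.2%), against 6.95% of all windows. Cdc25c had no promoter entry. The windows of Ccng2 held neither element, and those of Ccnk held 1 CCAAT. These are matches of letters and were set against no binding data.

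All levels given are log2 of the reference-corrected signal, and all changes are differences of mean log2 values, exposed minus control or Xpc-/- minus Wt, from limma with the standard error (SE). A probe was called where its p, adjusted over all 20868 probes by the Benjamini-Hochberg method, was under 0.05. Levels of different probes are not comparable with each other. The probe for Xpc was lower in the Xpc-/- mice by 0.70 ± 0.09 over both treatments (adjusted p = 0.0002978). Its 10 Wt values lay between 7.10 and 7.64 and its 10 Xpc-/- values between 6.26 and 6.99, with no overlap. Whether the probe lies in the deleted part of the gene is not known, so that this value checks the labels and not the size of the loss. When the probes were split into 4 equal bins by mean signal, the brightest bin held 15 of 16 spermatid, 11 of 14 spermatocyte, 7 of 14 Sertoli, 5 of 8 Leydig and 0 of 6 epididymis markers. The bins say that these probes gave signal and rank no gene by its transcript level. The arrays of Xpc-/- control 1 and 2 stood apart from the other 18 on the first principal component, with scores of 38.4 and 40.5 against -18.7 to 8.1. Xpc-/- control 1 held the highest or lowest value of the 20 mice for 12 of the 39 members (30.8%, against 26.6% of all probes), and Xpc-/- control 2 for 6 (15.4%, against 23.3%). Xpc-/- B[a]P 1 and 2 held it for 3 and 6 members, and for 21.8% and 16% of all probes. Their array weights were 0.44 and 0.59. For some members whose results changed without Xpc-/- control 1 and 2, the values without these 2 mice are also given.

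B[a]P exposure was associated with higher transcript levels of Cks2, Ccng2 and Ccnk and lower levels of Ccnb2 and Cdc25c over both genotypes. Cks2, a small subunit that docks CDK complexes onto their substrates, was 1.32-fold higher in the 10 exposed mice. Ccng2, an atypical cyclin linked to growth arrest, was 1.27-fold higher, and Ccnk, the cyclin of the transcriptional kinases Cdk12 and Cdk13, was 1.22-fold higher. Ccnb2, a mitotic and meiotic B-type cyclin, was at 0.83 and Cdc25c, a phosphatase that activates Cdk1, at 0.84 of the control level. The testis holds many cell types, so fewer cells of a type and less RNA per cell cannot be told apart. In all, 3 of 39 members rose, 2 fell and 34 did not pass the threshold, so 12.8% were called, against 5.68% of all probes (3.57% higher and 2.12% lower). Calls were more frequent among bright probes, and 15 of the 39 members lay in the brightest bin. There 4 of 15 members were called, against 16.1% of all probes of that bin. In the next bin 1 of 17 was called, against 5.52%. In the dimmer bins 0 of 4 and 0 of 3 were called, against 0.92% and 0.23%. The median change of the members was -0.04, against -0.01 for all probes, and 16 members had a positive and 23 a negative change. At an unadjusted p under 0.05 (limma) the counts were 5 higher and 9 lower, against 18.5% of all probes in either direction.

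**Figure D1:**
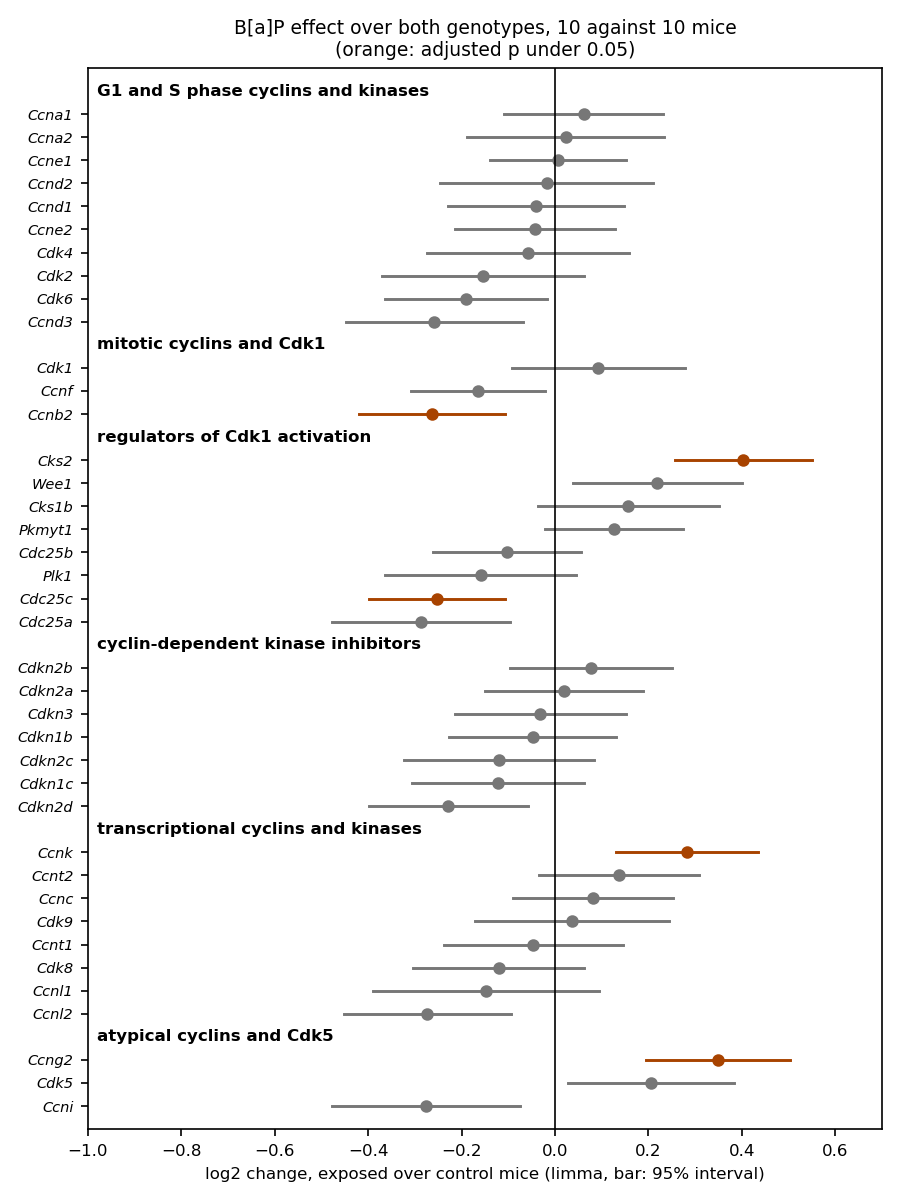
Log2 change of 39 members after B[a]P over both genotypes (10 exposed against 10 control mice), grouped by role; points are limma estimates and bars their 95% intervals. The 5 called members are in orange, from Cks2 at 0.40 to Ccnb2 at -0.26, and no member of the G1 and S phase group or of the inhibitors is among them. Of all probes 5.68% were called.

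Among the genes grouped here as regulators of Cdk1 activation, which include the docking subunits Cks2 and Cks1b, 1 of 8 rose and 1 fell. This count and those by role below divide the same 5 calls among few genes and say nothing of a role. They stand against 5.68% of all probes and 16.1% of those in the brightest bin, which held 4 of the 5 called members. Cks2 read 13.40, 13.38, 13.38, 13.13 and 13.42 in Wt control mice 1 to 5, and 13.64, 13.64, 13.83, 13.61 and 13.84 in Wt B[a]P mice. The Xpc-/- control mice read 13.34, 13.55, 13.40, 13.39 and 13.33, and the Xpc-/- B[a]P mice 13.68, 13.88, 13.92, 14.07 and 13.64. All 10 exposed mice were above all 10 control mice, which held for no other member. Such a separation, in either direction, was found for 0.412% of all probes. The change was 0.40 ± 0.07 (adjusted p = 0.0008045), with 0.37 ± 0.10 in Wt mice (adjusted p = 0.08298) and 0.44 ± 0.10 in Xpc-/- mice (adjusted p = 0.03345). Cks1b, its close paralogue, differed by 0.16 ± 0.09 and was not called (adjusted p = 0.4015).

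Cdc25c read 9.73, 9.67, 9.55, 9.74 and 9.67 in Wt control mice and 9.64, 9.60, 9.38, 9.56 and 9.55 in Wt B[a]P mice. Its values were 9.93, 9.78, 9.52, 9.77 and 9.73 in Xpc-/- control mice and 9.49, 9.36, 9.25, 9.16 and 9.57 in Xpc-/- B[a]P mice. The groups overlapped in both genotypes, in Xpc-/- mice only through control 3, whose value was below that of B[a]P mouse 5. The change was -0.25 ± 0.07 (adjusted p = 0.03066). Without Xpc-/- control 1 and 2 it was -0.22 ± 0.07 (adjusted p = 0.05279), past the threshold no longer. Leaving out any 1 of 8 mice also ended the call, at adjusted p = 0.05128 to 0.06626.

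The other Cdc25 phosphatases and the kinases they oppose were not called. Cdc25a, which acts at G1 and S phase as well as at mitosis, had an estimate of -0.29 ± 0.09 (adjusted p = 0.066) and Cdc25b of -0.10 ± 0.08. For Wee1 it was 0.22 ± 0.09 (adjusted p = 0.1597) and for Pkmyt1 0.13 ± 0.07 (adjusted p = 0.3634). Of these 5 genes, Cdc25c alone passed the threshold with all mice. Without Xpc-/- control 1 and 2, Cdc25a passed it instead, at -0.29 ± 0.10 (adjusted p = 0.04615), and the estimate for Wee1 was 0.14 ± 0.08 (adjusted p = 0.3063). Plk1, a mitotic kinase that activates Cdc25 proteins, had an estimate of -0.16 ± 0.10 (adjusted p = 0.4256). The estimate was -0.28 ± 0.09 (adjusted p = 0.03407) without Xpc-/- control 1 and 2, whose Plk1 values were the lowest of their group.

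Among the mitotic cyclins and Cdk1, 1 of 3 measured genes fell, in the brightest bin, where 16.1% of all probes were called. Ccnb2 read 12.36, 12.52, 12.36, 12.70 and 12.61 in Wt control mice and 12.11, 12.29, 12.22, 12.38 and 11.97 in Wt B[a]P mice. In Xpc-/- control mice it read 12.31, 12.27, 12.49, 12.52 and 12.50, and in Xpc-/- B[a]P mice 12.07, 11.98, 12.38, 12.21 and 12.38. The highest exposed mice overlapped with the lowest control mice in both genotypes. The change was -0.26 ± 0.08 (adjusted p = 0.03687), with -0.31 ± 0.11 in Wt and -0.21 ± 0.11 in Xpc-/- mice, neither past the threshold on its own. Leaving out any 1 of 12 mice ended the call, at adjusted p = 0.05292 to 0.08836, whereas without both Xpc-/- control 1 and 2 the change was -0.31 ± 0.08 (adjusted p = 0.009497). Ccnf, a cyclin that directs ubiquitin ligation and binds no CDK, had an estimate of -0.16 ± 0.07 (adjusted p = 0.1884). Cdk1, the kinase partner of Ccnb2, had one of 0.09 ± 0.09 (adjusted p = 0.6477).

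**Figure D2:**
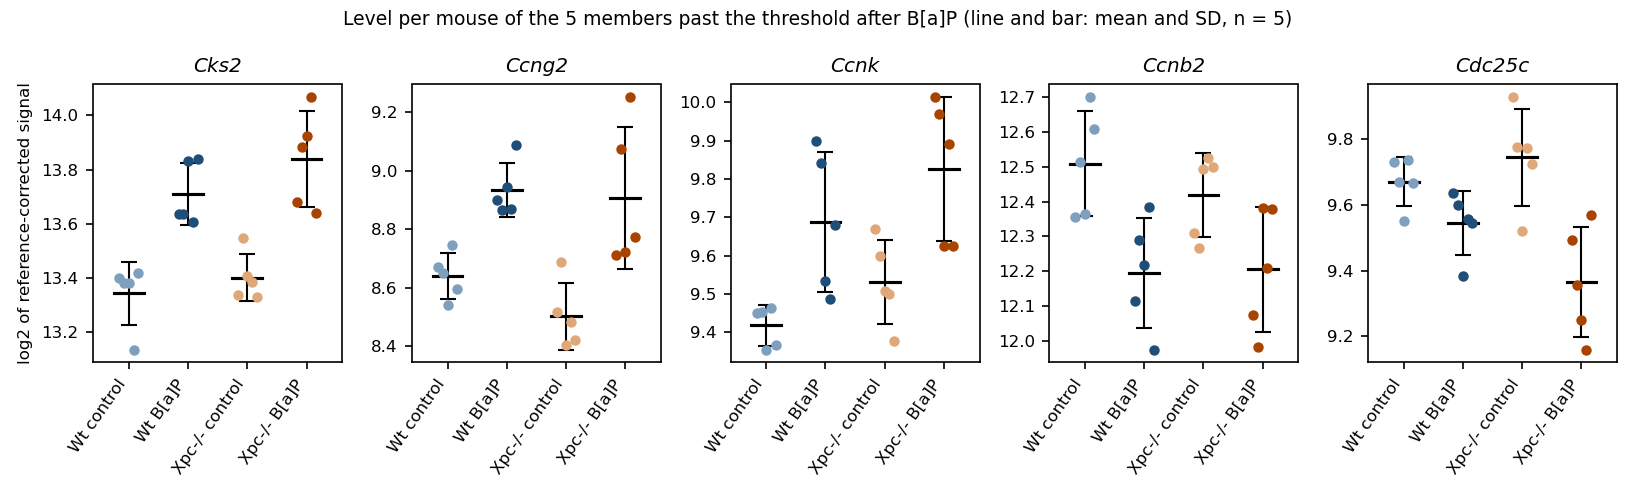
Level of Cks2, Ccng2, Ccnk, Ccnb2 and Cdc25c in each mouse (log2 of reference-corrected signal; each panel has its own axis), with 1 point per mouse and the mean and SD of 5 mice per group. All exposed mice lie above all control mice for Cks2, the groups separate within each genotype for Ccng2, and they overlap for Ccnb2 and Cdc25c.

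Of the transcriptional cyclins and kinases, 1 of 8 rose, also in the brightest bin, where 16.1% of all probes were called. Ccnk read 9.45, 9.45, 9.36, 9.46 and 9.37 in Wt control mice and 9.90, 9.84, 9.53, 9.49 and 9.68 in Wt B[a]P mice. The Xpc-/- control mice read 9.67, 9.60, 9.51, 9.50 and 9.38, and the Xpc-/- B[a]P mice 10.01, 9.97, 9.62, 9.89 and 9.63. The Wt groups did not overlap, and in Xpc-/- mice only control 1 reached into the exposed range. The change was 0.28 ± 0.07 (adjusted p = 0.02114), with 0.27 ± 0.11 in Wt and 0.29 ± 0.11 in Xpc-/- mice. Ccnl2, a cyclin of splicing speckles, had an estimate of -0.27 ± 0.09 (adjusted p = 0.06091), and its paralogue Ccnl1 of -0.15 ± 0.12. Without Xpc-/- control 1 and 2, Ccnl1 fell past the threshold, at -0.31 (adjusted p = 0.03109). Ccnc and Cdk8, a cyclin and kinase of the Mediator complex, had estimates of 0.08 ± 0.08 and -0.12 ± 0.09. Cdk9 had an estimate of 0.04 ± 0.10 and its cyclins Ccnt1 and Ccnt2, with which it releases paused polymerase, of -0.05 ± 0.09 and 0.14 ± 0.08. When Xpc-/- control 1 and 2 were left out, the Cdk9 estimate was 0.19 ± 0.08 (adjusted p = 0.1002) and that of Ccnt2 0.21 ± 0.08 (adjusted p = 0.08272). None of these 7 passed the threshold in the fit of all mice with equal weights and the values as deposited.

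Of the atypical cyclins and Cdk5, 1 of 3 rose, in the bin next to the brightest, where 5.52% of all probes were called. Ccng2 read 8.67, 8.65, 8.54, 8.75 and 8.59 in Wt control mice and 8.90, 8.87, 8.95, 8.87 and 9.09 in Wt B[a]P mice. Its values were 8.52, 8.69, 8.40, 8.48 and 8.42 in Xpc-/- control mice and 8.71, 9.07, 8.72, 9.25 and 8.77 in Xpc-/- B[a]P mice. All exposed mice were above all control mice of their own genotype. Ccng2 and Cks2 were the only members whose groups were separate in both genotypes, as they were in the same direction for 0.695% of all probes. The change was 0.35 ± 0.08 (adjusted p = 0.004742), with 0.29 ± 0.11 in Wt and 0.41 ± 0.11 in Xpc-/- mice (adjusted p = 0.2448 and 0.0654). For Ccni, an atypical cyclin, the estimate was -0.28 ± 0.10 (adjusted p = 0.09954), and Xpc-/- control 1 held its highest value. The Ccni estimate was -0.16 ± 0.08 (adjusted p = 0.2499) without Xpc-/- control 1 and 2. For Cdk5, a kinase best known from neurons, the estimate was 0.21 ± 0.09 (adjusted p = 0.1852).

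None of the 10 genes grouped here as G1 and S phase cyclins and kinases passed the threshold, where 5.68% of all probes did. The group includes Ccna1, although that cyclin is needed for male meiosis. Of the 10 genes, 2 had an unadjusted p under 0.05 (limma), against 18.5% of all probes. Among the D-type cyclins, which bind Cdk4 and Cdk6, Ccnd3 had an estimate of -0.26 ± 0.09 (adjusted p = 0.1036). For Ccnd1 and Ccnd2 the estimates were -0.04 ± 0.09 and -0.02 ± 0.11. Ccnd3 passed the threshold at -0.33 (adjusted p = 0.01382) when Xpc-/- control 1 and 2 were left out. The brighter Cdk6 probe had an estimate of -0.19 ± 0.08 (adjusted p = 0.2137) and the other one of 0.05 ± 0.09, so the probes of this gene disagreed in sign. For Cdk4 the estimate was -0.06 ± 0.11 and for Cdk2 -0.15 ± 0.11. Cdk2 was at -0.26 ± 0.10 (adjusted p = 0.07617) without Xpc-/- control 1 and 2. The E-type cyclins Ccne1 and Ccne2, partners of Cdk2, had estimates of 0.01 ± 0.07 and -0.04 ± 0.08. The A-type cyclins Ccna1 and Ccna2 had estimates of 0.06 ± 0.08 and 0.02 ± 0.10. Without Xpc-/- control 1 and 2, Ccna2 was at 0.14 ± 0.09 (adjusted p = 0.3632) and Ccnd1 at -0.14 ± 0.08 (adjusted p = 0.3283). With all mice, the 95% intervals reached at most 0.23 upward, for Ccna2, and -0.45 downward, for Ccnd3, among the brighter probes of the 10 genes.

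None of the 7 CDK inhibitors passed the threshold either, where 5.68% of all probes did. Cdkn2d, an INK4 inhibitor of Cdk4 and Cdk6, had an estimate of -0.23 ± 0.08 (adjusted p = 0.1099). It was the only one of the 7 with an unadjusted p under 0.05 (limma), against 18.5% of all probes. The other INK4 genes, Cdkn2a, Cdkn2b and Cdkn2c, had estimates of 0.02 ± 0.08, 0.08 ± 0.09 and -0.12 ± 0.10. Cdkn1b, which binds cyclin E and Cdk2, was estimated at -0.05 ± 0.09 on its brighter and at 0.11 ± 0.09 on its dimmer probe. For Cdkn1c, of the same family, the estimate was -0.12 ± 0.09, and for Cdkn3, a phosphatase that acts on CDKs, -0.03 ± 0.09. The highest upper limit of a 95% interval among the brighter probes of these genes was 0.25, for Cdkn2b.

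**Figure D3:**
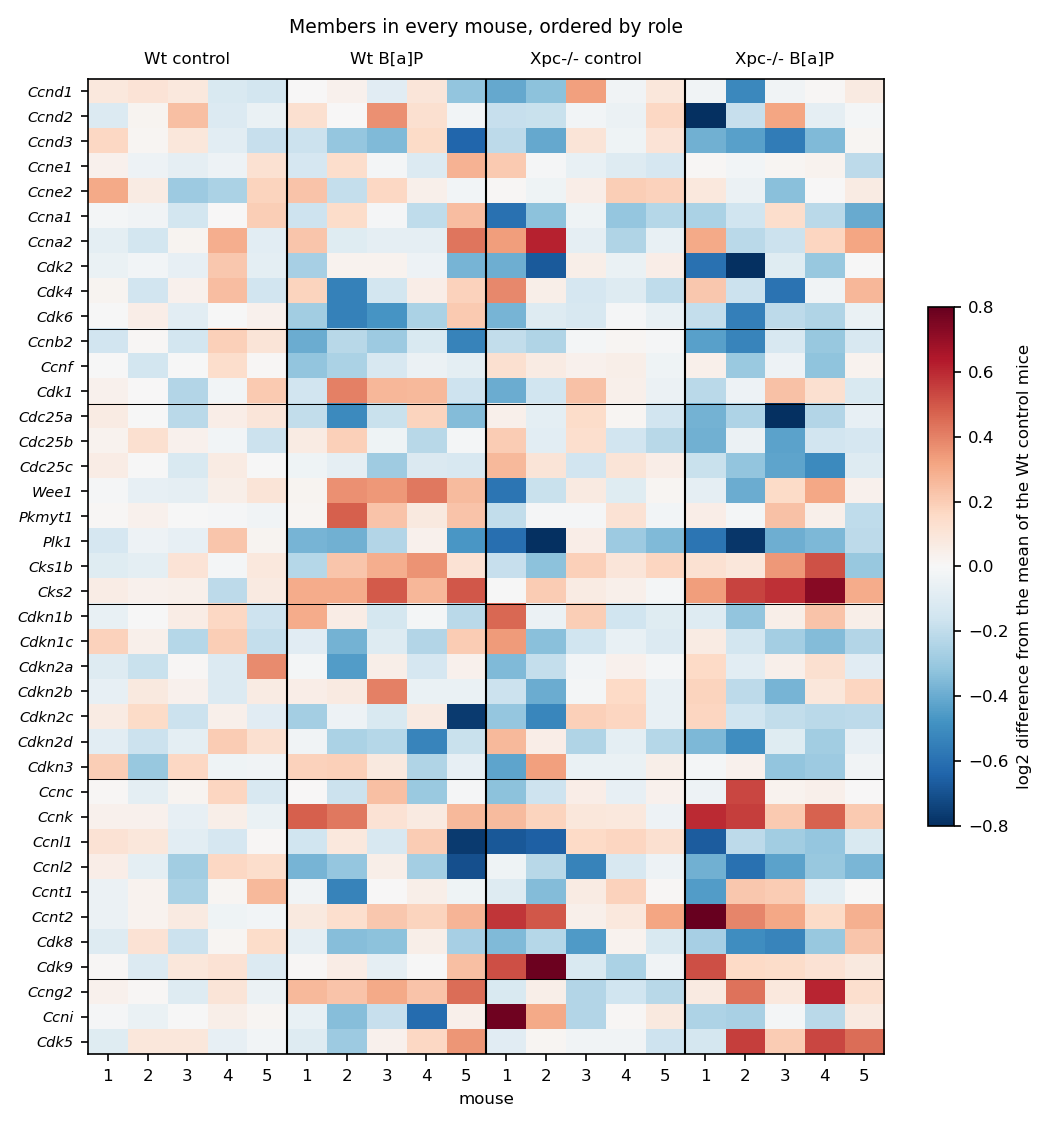
Log2 difference of each of 39 members (rows, ordered by role) from the mean of the Wt control mice, in each of 20 mice (columns, 5 per group); red is higher, blue is lower, and the colours end at 0.8 in either direction. The row of Cks2 is red across both exposed groups, and the columns of Xpc-/- control 1 and 2 differ from those of the other control mice in many rows.

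The heat map of all members by mouse showed how far single mice lay from the Wt control mean. The differences ran from -1.09, for Ccnd2, to 0.85, for Ccnt2, both in Xpc-/- B[a]P mouse 1. Of the 39 members, 22 had a pooled SD within groups above the median SD of the probes in their own bin of signal.

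Within single genotypes few members passed the threshold. In Wt mice 0 of 39 members were called, against 0.695% of all probes (limma). At an unadjusted p under 0.05, 4 members were higher and 4 lower, against 10.7% of all probes. The ordinary two-way analysis of variance also called 0. The 4 higher ones were Cks2, Ccng2, Ccnk and Wee1, and the 4 lower ones Ccnb2, Ccnl2, Cdk6 and Cdkn2d. In Xpc-/- mice Cks2 alone was called, against 0.647% of all probes. Ccng2, Ccnk, Cdk5, Cdc25c, Cdc25a and Ccni were the other members with an unadjusted p under 0.05 there, the first 3 higher and the last 3 lower. Over all probes 14.3% had such a p in Xpc-/- mice. Without Xpc-/- control 1 and 2 the set of members was different, with 6 members higher (Cks2, Ccng2, Ccnk, Cdk5, Ccnt2 and Cdk9) and 7 lower (Cdc25c, Cdc25a, Ccnb2, Ccnd3, Ccnl1, Cdk2 and Plk1). Ccni left the set, from -0.32 with all mice to -0.08 ± 0.13. The share of all probes at that p was not counted without these 2 mice, so the larger set has no background beside it. Groups without overlap were found for Cks2, Ccng2, Ccnk and Ccnt2 in Wt mice (4.26% of all probes) and for Cks2 and Ccng2 in Xpc-/- mice (2.29% of all probes). All 5 genes called over both genotypes had the same sign in each.

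The interaction of genotype and B[a]P, which tests whether the response differed, called 0 of 39 members, against 0% of all probes (limma). No member had an unadjusted p under 0.05, against 649 of all probes (3.11%), and the analysis of variance also called 0. Cdk5 had the smallest p. It read 7.94, 8.13, 8.13, 7.98 and 8.02 in Wt control mice and 7.93, 7.75, 8.07, 8.21 and 8.39 in Wt B[a]P mice. In Xpc-/- control mice it read 7.95, 8.06, 8.01, 8.01 and 7.88, and in Xpc-/- B[a]P mice 7.90, 8.59, 8.24, 8.57 and 8.49. In Xpc-/- mice 4 of 5 exposed mice were above all controls, and mouse 1 was not, whereas the Wt exposed mice lay on both sides of their controls. The estimates were 0.03 ± 0.12 in Wt and 0.38 ± 0.12 in Xpc-/- mice, and their difference was 0.35, with a 95% interval of -0.01 to 0.70 (adjusted p = 0.9995). Cdc25c was next, with estimates of -0.13 ± 0.10 in Wt and -0.38 ± 0.10 in Xpc-/- mice. The difference was -0.25, with a 95% interval of -0.55 to 0.04 (adjusted p = 0.9995). For Cks2 the difference was 0.07, with an interval of -0.22 to 0.36.

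**Figure D4:**
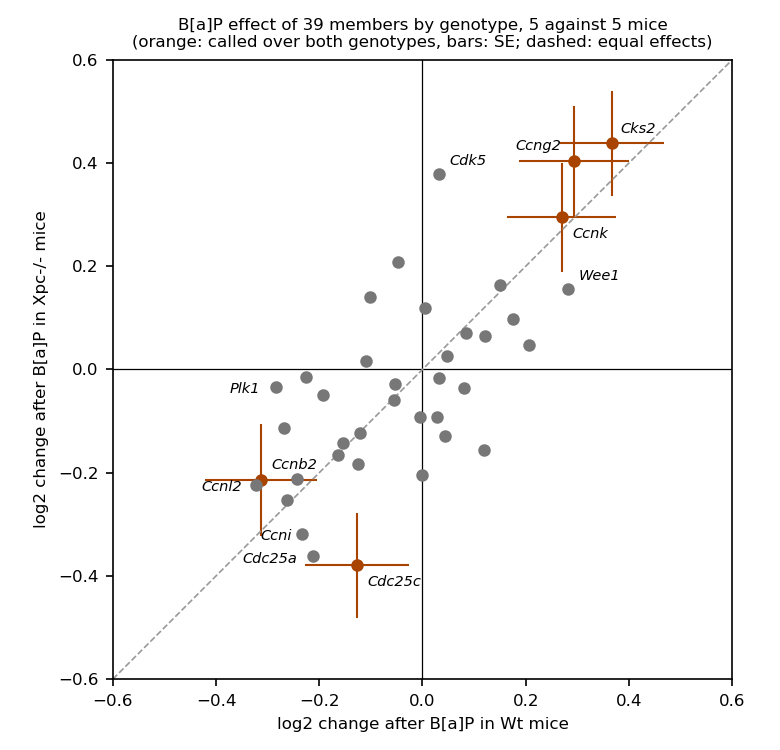
Log2 change of 39 members after B[a]P in Wt mice (horizontal axis) and in Xpc-/- mice (vertical axis), 5 exposed against 5 control mice each; orange points are the 5 members called over both genotypes, with bars of 1 SE, and the dashed line marks equal changes. The orange points lie in the upper right or lower left, and Cdk5 lies farthest above the line, at 0.03 and 0.38.

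No member passed the threshold between the genotypes. Called were 0 of 39 in unexposed mice (0% of all probes), 0 in exposed mice (0.00479%) and 0 over both treatments (0.0192%). At an unadjusted p under 0.05 (limma), 1 member was higher and 2 lower in unexposed mice, against 4.44% of all probes. In exposed mice 1 was higher and 3 lower, against 4.33%, and over both treatments 1 was higher and 4 lower, against 6.55%. The analysis of variance called 0 members in each of these comparisons as well. Without Xpc-/- control 1 and 2 no member had an unadjusted p under 0.05 in unexposed mice, where Plk1 went from -0.43 to -0.20, Ccnt2 from 0.30 to 0.14 and Ccna1 from -0.30 to -0.19. Over both treatments 1 higher and 2 lower members were left. The smallest p over both treatments belonged to Ccnt2, Plk1 and Ccna1, each with adjusted p = 0.7439.

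Ccnt2 read 6.95, 7.03, 7.07, 6.96 and 6.97 in Wt control mice and 7.07, 7.13, 7.21, 7.17 and 7.27 in Wt B[a]P mice. The Xpc-/- control mice read 7.57, 7.49, 7.03, 7.08 and 7.31, and the Xpc-/- B[a]P mice 7.84, 7.39, 7.30, 7.15 and 7.28. The Xpc-/- mice were spread more widely than the Wt mice, with Xpc-/- control 1 and 2 the highest of their group. Within Wt mice all exposed values were above the controls, by less than 0.01 between the nearest mice. The genotype difference was 0.26 ± 0.08, and 0.18 ± 0.08 without those 2 mice.

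Plk1 read 11.15, 11.24, 11.22, 11.50 and 11.30 in Wt control mice and 10.91, 10.90, 11.05, 11.32 and 10.82 in Wt B[a]P mice. Its values were 10.68, 10.32, 11.34, 10.99 and 10.93 in Xpc-/- control mice and 10.70, 10.50, 10.89, 10.92 and 11.07 in Xpc-/- B[a]P mice. The SD of the Xpc-/- control group, 0.38, was the largest of the 4 groups, and controls 1 and 2 were its lowest mice. The genotype difference was -0.31 ± 0.10, and -0.19 ± 0.09 without those 2 mice.

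Ccna1, the germ cell form of cyclin A, read 11.31, 11.30, 11.18, 11.33 and 11.52 in Wt control mice and 11.16, 11.48, 11.32, 11.13 and 11.57 in Wt B[a]P mice. In Xpc-/- control mice it read 10.73, 11.00, 11.29, 11.02 and 11.10, and in Xpc-/- B[a]P mice 11.07, 11.17, 11.47, 11.11 and 10.92. The Xpc-/- control mice overlapped with the Wt control mice only through mouse 3. The genotype difference was -0.24 ± 0.08, and -0.19 ± 0.08 without Xpc-/- control 1 and 2.

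**Figure D5:**
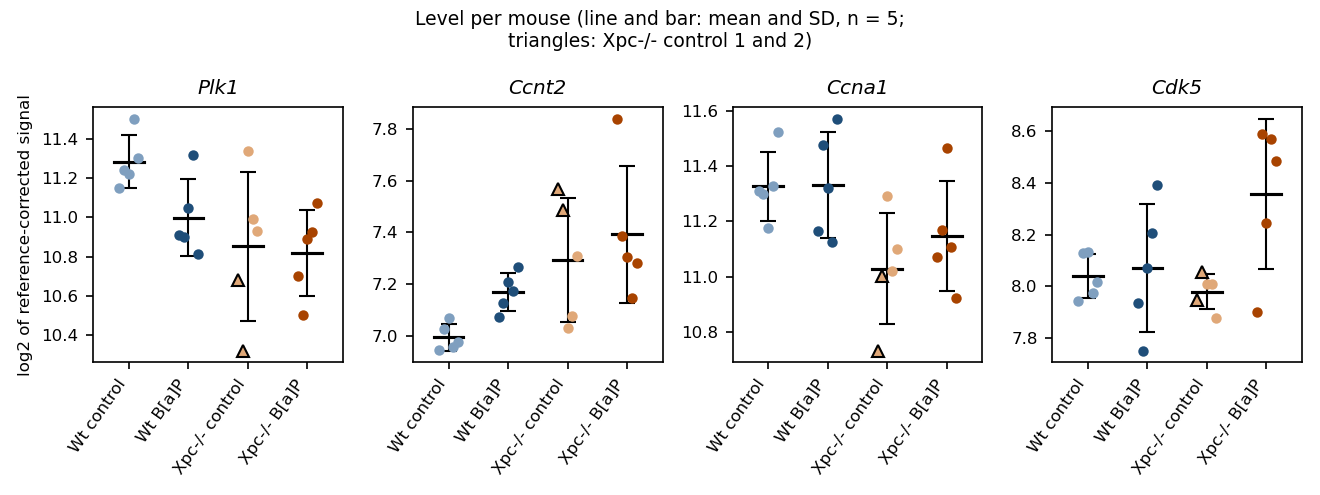
Level of Plk1, Ccnt2, Ccna1 and Cdk5 in each mouse (log2 of reference-corrected signal; each panel has its own axis), with the mean and SD of 5 mice per group; triangles are Xpc-/- control 1 and 2. These 2 mice are the lowest of their group for Plk1 and Ccna1 and the highest for Ccnt2, while for Cdk5 the Xpc-/- B[a]P mice are spread from 7.90 to 8.59.

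Genes that work next to the members were followed in 6 lists, of which 107 of 116 genes had a probe. After B[a]P over both genotypes 4 rose, 6 fell and 97 did not pass the threshold, so 9.35% were called, against 5.68% of all probes, and the median change was 0.01. Of these genes 39 lay in the brightest bin, where 7 were called, and 37 in the next, where 0 were, against the 16.1% and 5.52% of all probes in these bins. A further 3 of 22 were called in the bin below, and 0 of 9 in the dimmest. None of 22 other cyclins and CDKs was called (smallest adjusted p = 0.08658). At an unadjusted p under 0.05 (limma), 1 was higher and 2 lower, against 18.5% of all probes. Ccng1, a p53 target and the paralogue of Ccng2, was among the 22, at 0.03 ± 0.10. Of 20 genes of RB and E2F transcription, Mybl1, a factor of meiotic prophase in male mice, fell by 0.33 (SE 0.09, adjusted p = 0.02779).

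Of 13 genes of cullin ubiquitin ligases that act on cyclins and inhibitors, Cul3, a scaffold, rose by 0.30 ± 0.08 (adjusted p = 0.02398) and Dtl, a substrate receptor in S phase, by 0.27 ± 0.08 (adjusted p = 0.04605). Fbxw11, an F-box receptor whose targets include Wee1, fell by 0.31 (SE 0.08, adjusted p = 0.01627). Of 19 mitotic kinases and phosphatases that counteract Cdk1, Aurkc, the aurora kinase of meiosis, fell by 0.31 (SE 0.09, adjusted p = 0.04374). Ppp2r2d, a regulatory subunit of protein phosphatase 2A, fell by 0.23 (SE 0.06, adjusted p = 0.02647).

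Of 17 genes of the checkpoint kinases and the p53 arm, Rad17, which loads the checkpoint clamp onto DNA, rose by 0.32 ± 0.09 (adjusted p = 0.02374). Gadd45b, a stress-inducible gene, fell by 0.26 (SE 0.08, adjusted p = 0.04674). Cdkn1a, the p53-induced CDK inhibitor, had an estimate of -0.01 ± 0.07 (adjusted p = 0.9633). Of 16 partners and adaptors of CDKs, Larp7, which stabilises the RNA that keeps Cdk9 and cyclin T inactive, rose by 0.32 ± 0.07 (adjusted p = 0.004303). Cdk5rap3, named for its binding to a Cdk5 activator, fell by 0.30 (SE 0.07, adjusted p = 0.0083).

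Markers of the cell types of the testis were set beside these changes. The mean of the 16 spermatid genes, relative to the Wt control mean, ran from -0.179 to 0.010 in Wt B[a]P mice and from -0.141 to -0.010 in Xpc-/- B[a]P mice, against -0.087 to 0.106 in Wt and -0.015 to 0.076 in Xpc-/- control mice. The probes of Tnp1, Prm1, Prm2 and Odf2 had mean levels over 15, near the top of the scale, where signals can be saturated. Without these 4 the means ran from -0.116 to 0.013 and from -0.190 to -0.016 in the exposed groups, against -0.117 to 0.141 and -0.022 to 0.104 in the control groups, and overlapped in both genotypes. Of the 16 genes 1 was called, Tssk2, which fell by 0.26 (SE 0.08, adjusted p = 0.04007). In Wt mice the changes of Tnp1, Prm1 and Prm2 were identical, at -0.2036, and equal to that of the spermatocyte gene Ldhc. These probes therefore did not give separate readings. The mean of the 14 spermatocyte genes ran from 0.000 to 0.096 and from 0.045 to 0.129 in the exposed groups, against -0.073 to 0.090 and -0.001 to 0.082 in the control groups, in the same order, with Ldhc also over 15. Here 2 of 14 rose, Sycp2 by 0.38 ± 0.09 (adjusted p = 0.01371) and Sycp3 by 0.40 ± 0.08 (adjusted p = 0.004093), both of the axis of meiotic chromosomes. None of 13 spermatogonial, 14 Sertoli, 8 Leydig, 3 red blood cell or 6 epididymis genes was called. Of 7 peritubular myoid genes 2 rose, Tagln by 0.43 and Cnn1 by 0.33, and of 9 macrophage genes 1 rose, C1qc by 0.41. These counts stand against 5.68% of all probes and 16.1% of those in the brightest bin, which held most germ cell markers. The mean of the 7 myoid genes ran from 0.003 to 0.175 in Xpc-/- B[a]P mice and from -0.156 to -0.027 in Xpc-/- control mice, without overlap. In Wt mice the myoid means overlapped, at 0.014 to 0.180 after B[a]P and -0.051 to 0.049 in controls. The mean of the Leydig genes ran from -0.605 to 0.764 within the Wt control mice. The part of cell composition in the changes of the members was not tested.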

How the data were processed

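Whole testis RNA of 20 mice was labelled with Cy5 and hybridised on Agilent 22K Mouse arrays against Cy3-labelled reference RNA. The deposited table gives 1 natural log value for each of 20868 probes and each mouse. To make it, the authors brought all scans to a common distribution by quantile normalization and used the Cy3 channel to correct the Cy5 signal. Repeated spots of a probe are already combined, and a subtraction of local background is not stated. Groups and replicate numbers came from the labels. The number of arrays limits the precision.

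The deposited natural log values were divided by ln 2 and no probe was left out. A single gene symbol was listed for 18303 probes and none for 2565, and 18134 probes were matched by Entrez ID to RefSeq genes of GRCm38.p6, used for current symbols. The brightest probe stands for a gene. Linear models with 1 mean per group were fitted (limma 3.58.1, R 4.3.3), 7 contrasts were tested two-sided, and p was adjusted over all probes. The methods' two-way analysis of variance was run as an alternative, as were other normalizations, moderation, array weights, filters, a replicate block and the loss of each mouse.

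The members and the gene lists were chosen with earlier results of these data known. Every member was named. Values per mouse are given for members called after B[a]P, the 3 with the smallest p between genotypes, the 2 with the smallest p in the interaction, and of the neighbouring lists every called gene was named. Ccng1 and Cdkn1a, which were not called, were named after their values were seen.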

Additional observations from a re-analysis of the deposited data

Results flagged for a closer look

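In 9 of the 156 groups of 5 mice (39 members in 4 groups), 1 mouse stood apart from the other 4 by Dixon's criterion, which chance meets in about 1 in 20 groups. Cks2 was 13.134 in Wt control mouse 4, below the 13.379 to 13.416 of the others. Without that mouse Cks2 kept its call after B[a]P. Cdk2 was 9.065 in the same mouse, above 8.774 to 8.825. In Wt B[a]P mice, Ccnt1 was 6.463 in mouse 2, below 6.968 to 7.045, and Cdkn2b was 7.642 in mouse 3, above 7.181 to 7.311. The other 5 were in Xpc-/- B[a]P mice. There Ccnc was 8.760 and Ccnd1 7.490 in mouse 2, with the others at 8.182 to 8.266 and 7.976 to 8.078. Cdk9 was 10.598 and Cdkn2c 11.526 in mouse 1, with the others at 10.16 to 10.239 and 11.134 to 11.196. Ccne1 was 9.178 in mouse 5, below 9.367 to 9.415. None of these genes but Cks2 was called.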

How the results depend on the processing

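Cks2, Ccng2 and Ccnk were called after B[a]P under all 29 alternatives, and no called member changed sign. Of the members called under none, 10 had B[a]P estimates of both signs among the alternatives (Ccna2, Ccnd1, Ccnd2, Ccne1, Ccnt1, Cdk4, Cdk9, Cdkn1b, Cdkn2a and Cdkn3, all between -0.14 and 0.19). Without Xpc-/- control 1 and 2, estimates over both genotypes changed sign for 2 members and moved by over 1.5 times for 20 others. The count of members called after B[a]P over both genotypes, 5, became 3 with an intensity trend and robust moderation (Ccnb2 and Cdc25c were lost, at adjusted p = 0.05837 and 0.06071), 11 with array weights and 8 without Xpc-/- control 1 and 2, a choice made after seeing the data (Cks2, Ccng2, Ccnk, Ccnb2, Ccnd3, Ccnl1, Cdc25a and Plk1), and it ran from 3 to 7 when 1 mouse was left out. Array weights were 0.27 and 0.26 for those 2 arrays, and added Ccnd3, Ccnl1, Ccnl2, Cdk5, Cdk6 and Cdc25a. In Wt mice the count of 0 became 1 with array weights and 1 without both Xpc-/- controls, and stayed at 0 when 1 mouse was left out. In Xpc-/- mice the count of 1 became 2 with the analysis of variance, 0 with trend and robust moderation, 4 with array weights and 2 without both controls, and ran from 0 to 2 when 1 mouse was left out. The causes were not tested. Counts of members in the genotype comparisons and the interaction were 0 throughout. Over all probes the B[a]P calls ran from 763 to 1667 with 1 mouse left out, against 1186. With array weights 1318 probes were called higher and 1312 lower, against 744 and 442 in the main fit. Without Xpc-/- control 1 and 2 the counts over all probes were 1174 and 1227, so that calls of all probes rose along with those of members. With an intensity trend and robust moderation they were 666 and 356.

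Ccnb2 lost its call without Wt control 2 (adjusted p = 0.05876), 4 (0.08836) or 5 (0.07283), Wt B[a]P 1 (0.06485), 3 (0.05442) or 5 (0.07698), Xpc-/- control 3 (0.05292), 4 (0.06982) or 5 (0.06769), or Xpc-/- B[a]P 1 (0.06309), 2 (0.07582) or 4 (0.05665). Cdc25c lost it without Wt control 1 (0.05739), 4 (0.06393) or 5 (0.05128), Wt B[a]P 3 (0.06497), Xpc-/- control 1 (0.05596) or 4 (0.05261), or Xpc-/- B[a]P 3 (0.05461) or 4 (0.06626). Calls were gained by Ccnd3 without Wt B[a]P 4 (0.0355), Xpc-/- control 2 (0.03708) or Xpc-/- B[a]P 5 (0.04304), by Cdc25a without Wt B[a]P 4 (0.02474) or Xpc-/- B[a]P 5 (0.0335), by Ccnl2 without Wt control 3 (0.03462), Wt B[a]P 3 (0.0257) or Xpc-/- control 3 (0.02106), by Ccni without Xpc-/- control 3 (0.0302), and by Cdk5 without Xpc-/- B[a]P 1 (0.04726). A second quantile normalization added Ccnl2 (0.04839).

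The replicate numbers did not pair the mice. After each group's mean was subtracted per probe, same-numbered mice of different groups correlated at -0.227 to 0.323. By that measure 5 of 20 arrays matched best, among arrays of other groups, with their own number. With the replicate block the count of members called after B[a]P was 5, the same genes, with 760 probes higher and 468 lower against 744 and 442. It changed no call of a member.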
